A study of Mus musculus with 12 samples.

Results

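The genes of TGF-beta, Nodal and BMP signalling were described in NE-4C cells with and without the ER protein FAF2, before and after retinoic acid (RA). The list was set by name, with earlier results of these data known. It holds 45 genes of the 57010 in the table, sorted by role into 3 TGF-beta ligands, 3 genes of TGF-beta latency and matrix (Ltbp1, Ltbp3, Tgfbi), 4 Nodal and activin ligands with 3 antagonists, 5 BMP ligands, the protease Bmp1, 4 BMP antagonists, 10 receptors, 6 receptor-regulated and common Smads, 2 inhibitory Smads and 4 Id genes. All 45 were in the table, and all 45 were among the 16502 genes that passed the filter on low counts. NE-4C is a mouse line from the brain of the E9 embryo that was immortalised by loss of p53, a change that all 4 groups share. Wildtype cells (WT) and Faf2 knockout cells (KO) were collected either without induction at day 0 (WT NO, KO NO) or at day 3 after 24 h in RA at 1 µM (WT RA, KO RA), with 3 libraries in each group from separate passages. No untreated group was collected at day 3, so RA and the days in culture cannot be told apart. A change with or after RA means here the RA group against the untreated group. The KO cells are 1 line, grown from a picked colony after CRISPR/Cas9 removal of Faf2 exon 4 and puromycin selection, so that what belongs to the deletion and what belongs to that colony cannot be told apart.

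The TGF-beta superfamily signals through dimeric ligands that bring together type I and type II serine/threonine kinase receptors. TGF-beta, Nodal and activin receptors phosphorylate SMAD2 and SMAD3, BMP receptors phosphorylate SMAD1, SMAD5 and SMAD9, and both kinds of Smad enter the nucleus with SMAD4. TGF-beta is secreted in a latent complex tied to LTBP proteins, Nodal is held in check by LEFTY proteins and activin by follistatin, and BMPs are trapped by noggin, chordin and gremlin. In the early embryo Nodal maintains the epiblast and patterns the axis, while BMPs and their antagonists set the boundary of the neural plate and pattern the dorsal neural tube.

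Levels are CPM, counts scaled to the total of the library with TMM factors, from deposited counts already corrected for gene length, so that levels of different genes can be set side by side. Fold changes are on the log2 scale with a standard error (SE), and a call means that the adjusted p (Benjamini-Hochberg, all genes tested) of edgeR's quasi-likelihood test was under 0.05. The SE is the absolute log2 fold change divided by the square root of the F statistic of that test. It is not a separately fitted error. Depth was 17370069 to 30738717 counts per library, and 44 or all 45 of the genes were above 0 in each. The deleted gene itself, Faf2, was at 50.01, 38.8 and 36.0 CPM in WT NO against 21.0, 21.7 and 25.4 in KO NO, and at 35.1, 37.9 and 49.1 in WT RA against 36.1, 34.3 and 18.7 in KO RA. It was not called untreated (log2 fold change −0.87, SE 0.27, adjusted p = 0.179) or after RA (−0.45, SE 0.27, adjusted p = 0.395). In a fit without library 3 of KO RA it was called untreated (−0.86, adjusted p = 0.0111). The lack of a call therefore does not show that a gene is unchanged. The RA groups overlapped in Faf2, and a count over the whole gene still includes the exons left in place, so it checks the labels only in part. Of the neural progenitor markers, Nes, Sox2, Otx2 and Cdh2 were detected in all libraries, but Pax6 was called lower in KO (0.791, 1.10 and 2.01 CPM in KO NO against 9.30, 8.80 and 4.12 in WT NO, adjusted p = 0.0264), Sox1 and Fabp7 were under 1 CPM in all untreated libraries, and Pou5f1, a pluripotency factor, was at 800.0 to 2775 CPM throughout. Library 3 of KO RA stood apart, with 62.5% of its counts in its 100 highest genes against 37.1% to 50.4% in the others, 23.5% mitochondrial counts against 9.10% to 17.7%, and a TMM factor of 0.394 against 0.872 to 1.28. Results that rest on KO RA are therefore also given without it, as the log2 fold change of the fit of the other 11 libraries.

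The most genes of the family were called in KO RA against KO NO. There 10 of the 45 genes rose and 2 fell, against 3.89% of all genes tested that rose and 1.59% that fell. Since the list was chosen with earlier results of these data known, its counts beside the shares of all genes are a description only. The risers were the ligands Tgfb2, Inhbb, Bmp2 and Bmp4, the latency protein gene Ltbp1, the matrix gene Tgfbi, the protease gene Bmp1, the antagonists Nog and Grem1, and the target Id2, while the ligands Tgfb1 and Nodal fell. In WT RA against WT NO only Ltbp1 rose (0.321% of all genes) and only Tgfb1 fell (0.0848%). In KO NO against WT NO none rose (0.788% of all genes) and Tgfb3 fell (0.351%), and in KO RA against WT RA Tgfb2 rose (0.885%) and none fell (0.358%). For the 2 counts of 0, edgeR gave 2 genes higher and 2 genes lower, respectively, at an unadjusted p under 0.05. DESeq2 called 1 gene higher in KO NO against WT NO and 2 lower in KO RA against WT RA, and limma-voom with library weights called 6 and 2. In both directions DESeq2 called 3 of the 45 in KO NO against WT NO (6.15% of all genes), 10 in KO RA against WT RA (7.97%), 6 in WT RA against WT NO (5.6%) and 16 in KO RA against KO NO (15.9%). The counts of limma-voom, in the same order, were 11 (21.6%), 14 (18.1%), 13 (21.6%) and 28 (27.5%). The comparisons share groups with one another, and their values stand side by side here without a test of likeness.

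**Figure D1:**
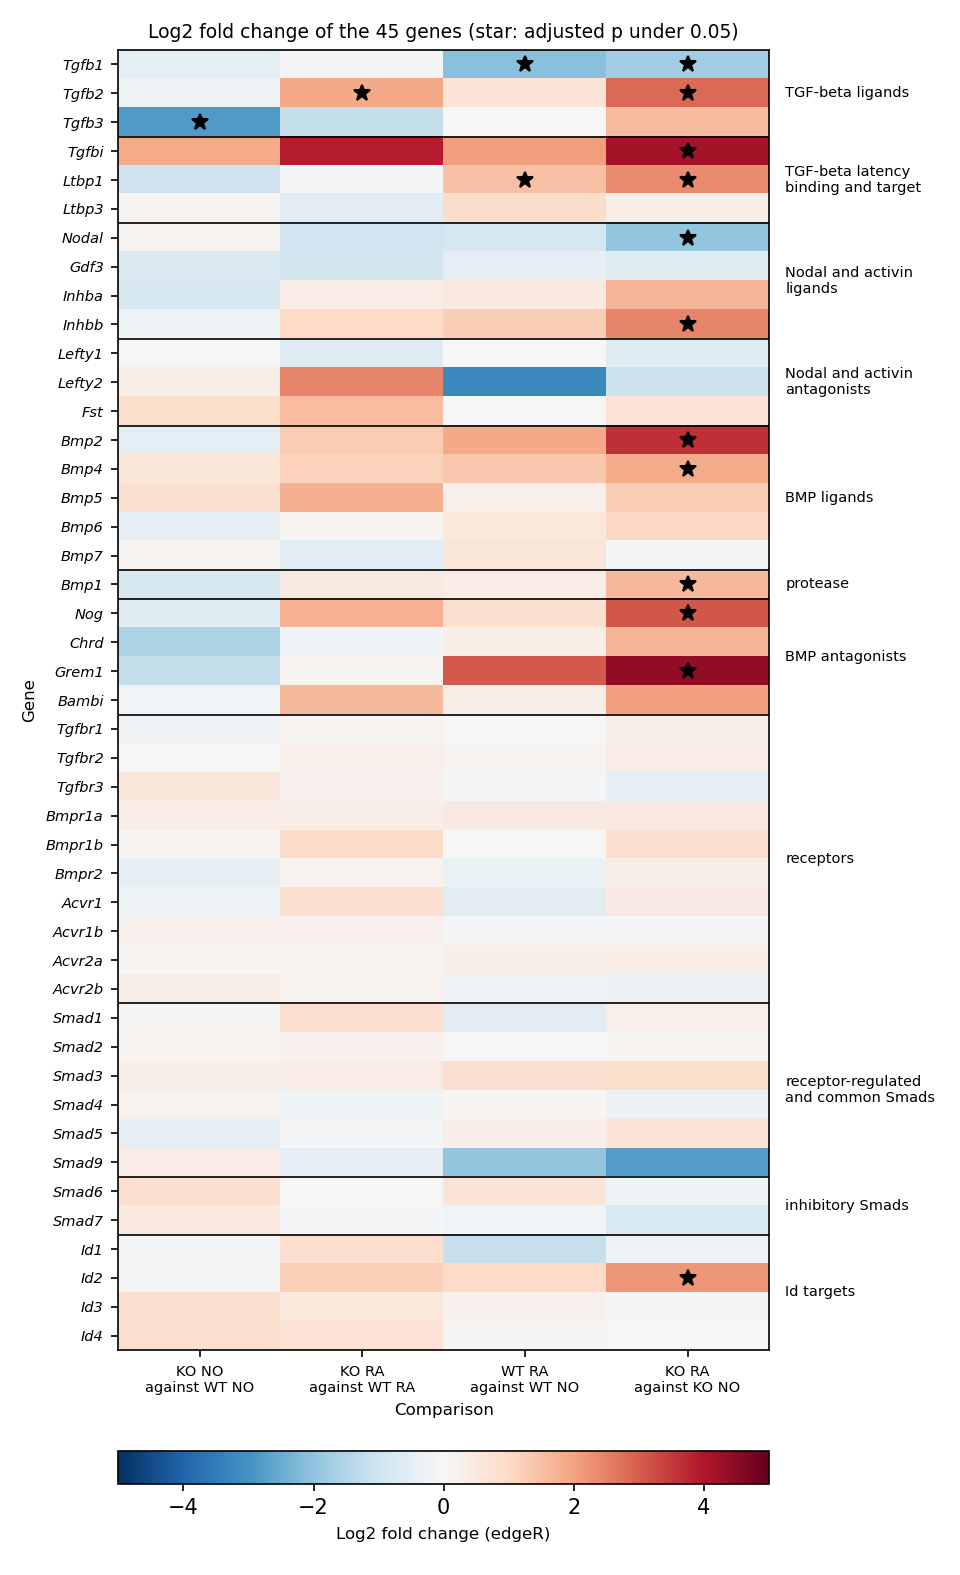
Colour gives the log2 fold change (edgeR) of each of the 45 genes (rows, grouped by role) in 4 comparisons (columns), red for higher and blue for lower in the first-named group, and a star marks an adjusted p under 0.05. Of the 16 stars, 12 lie in the column KO RA against KO NO, and none lies on a receptor or a Smad.

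Without library 3 of KO RA, in a fit of the other 11 libraries, more genes passed in every comparison with a call. In KO RA against KO NO 18 genes passed (16% of all genes tested), in KO RA against WT RA 10 (9.85%), in WT RA against WT NO 7 (10.8%) and in KO NO against WT NO 4 (8.78%). All 12 genes called in KO RA against KO NO with every library passed again, and Tgfb3, Fst, Bmpr1b, Bambi, Smad3 and Smad5 were added, all higher. Against the counts with all libraries, leaving out other libraries lowered several and raised some. The 12 calls of KO RA against KO NO came to 4 without any 1 of the KO NO libraries, the call of KO RA against WT RA was lost without WT RA 1, WT RA 3 or KO RA 1 (0 of 45), both calls of WT RA against WT NO were lost without any 1 of the WT NO or WT RA libraries or without KO NO 1 or 2, and the call of KO NO against WT NO was lost without 9 of the 12 libraries, which are named with Tgfb3. Without WT NO 3 the count was 2 for both knockout against wildtype comparisons, and without KO NO 3 or KO RA 2 that of WT RA against WT NO was 1. Counted by groups alone, 16 of the 45 genes had all 3 KO RA libraries above all 3 KO NO libraries (13.2% of all genes) and 5 had them below (17%). For WT RA against WT NO the counts were 11 above (15.1%) and 6 below (14%), for KO NO against WT NO 9 above (15.5%) and 4 below (15.2%), and for KO RA against WT RA 8 above (9.97%) and 3 below (10.9%). The median log2 fold change of the 45 genes was 0.37 in KO RA against KO NO, beside 0.11 over all genes, and it was 0.20 in WT RA against WT NO beside −0.01.

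The promoters of 5 genes that changed with RA in the knockout line are shown so that the sequence before genes that changed together can be compared: Tgfb1, which fell, and Tgfb2, Ltbp1, Bmp4 and Grem1, which rose. The sequences are RefSeq promoter windows (250 bases before to 50 after a start, GRCm38.p6), found again by exact match in GRCm39, and only the bases before the first annotated exon base are printed, 5′ to 3′. They lie at chr7:25386177-25386389, plus strand (Tgfb1), chr1:186438295-186438436, minus strand (Tgfb2), chr17:75312274-75312518, plus strand (Ltbp1, the upstream of its 2 windows), chr14:46628127-46628376, minus strand (Bmp4) and chr2:113589001-113589243, minus strand (Grem1), and contain no exonic base of the gene. Of the 5, the Bmp4 window lies inside the gene, within introns of its longer annotated transcripts, and the others lie upstream of it. Capitals mark, on either strand, GGCGCC or GGAGCC (GC-rich SMAD elements), GTCTAGAC (the palindromic SMAD element) or AGGTCA (a nuclear receptor half-site).
Tgfb1: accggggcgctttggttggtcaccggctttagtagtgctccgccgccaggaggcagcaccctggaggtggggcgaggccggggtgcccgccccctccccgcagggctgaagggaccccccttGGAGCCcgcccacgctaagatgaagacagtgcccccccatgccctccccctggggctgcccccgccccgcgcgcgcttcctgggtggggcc
Tgfb2: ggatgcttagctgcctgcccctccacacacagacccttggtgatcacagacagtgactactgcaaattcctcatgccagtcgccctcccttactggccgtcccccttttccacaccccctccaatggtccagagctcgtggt
Ltbp1: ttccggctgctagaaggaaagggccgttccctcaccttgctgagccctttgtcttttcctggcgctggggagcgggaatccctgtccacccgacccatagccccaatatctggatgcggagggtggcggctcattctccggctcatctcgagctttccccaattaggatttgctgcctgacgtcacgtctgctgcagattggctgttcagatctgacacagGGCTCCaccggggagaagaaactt
Bmp4: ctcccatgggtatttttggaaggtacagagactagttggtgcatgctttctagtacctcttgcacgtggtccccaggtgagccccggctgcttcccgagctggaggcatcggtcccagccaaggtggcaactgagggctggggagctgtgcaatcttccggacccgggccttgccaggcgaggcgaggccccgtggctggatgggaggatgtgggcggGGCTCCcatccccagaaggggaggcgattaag
Grem1: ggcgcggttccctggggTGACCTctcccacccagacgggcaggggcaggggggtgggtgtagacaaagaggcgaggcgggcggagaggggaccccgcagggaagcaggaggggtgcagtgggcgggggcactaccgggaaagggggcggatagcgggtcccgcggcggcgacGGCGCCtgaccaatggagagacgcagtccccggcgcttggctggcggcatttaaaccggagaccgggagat
Tgfb1 and Bmp4 each held 1 GGAGCC, and so did the Ltbp1 window shown, while the Tgfb2 window held none of the motifs. The start of that Ltbp1 window lies 173281 bases upstream of the start of the canonical Ltbp1 transcript. The other Ltbp1 window, not shown, has its start 29 bases from the canonical one and held none of the motifs. Grem1 held 1 GGCGCC and 1 AGGTCA. Of the 45 genes, 30 had a window in the table, with 36 windows in all. GGAGCC was in 20 of the 36 (55.6%) against 30.8% of all 32851 windows, and GGCGCC in 12 (33.3%) against 11.9%. AGGTCA was in 2 (5.56%) against 16.3% and GTCTAGAC in 1 (2.78%, Smad6) against 0.213%. The windows of the family were richer in G and C, with a median of 64.2% against 52.7%, and windows of 1 gene can overlap. A match is a description of letters and not a binding site.

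By mean level, Tgfb1 was the highest of the 3 TGF-beta ligands in both untreated groups and Tgfb2 the highest in KO RA. Tgfb1 (chr7:25386390-25404506, plus strand, GRCm39) was at 10.6, 13.1 and 9.77 CPM in WT NO and at 2.60, 2.67 and 2.58 in WT RA. In the knockout line it was at 7.18, 6.46 and 10.9 CPM untreated and at 3.52, 1.77 and 2.08 after RA. In both genotypes all 3 RA libraries lay below all 3 untreated ones, and the fall was called in WT (log2 fold change −2.09, SE 0.31, adjusted p = 0.0307) and in KO (log2 fold change −1.73, SE 0.31, adjusted p = 0.0114). Without library 3 of KO RA the KO value was −1.65 (adjusted p = 0.00756). The call in WT was lost on leaving out any 1 of WT NO 1 to 3, WT RA 1 to 3 or KO NO 1 and 2 (adjusted p = 0.0508 to 0.124), and that in KO on leaving out KO NO 3 (adjusted p = 0.0559) or with only the libraries compared (adjusted p = 0.112).

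Tgfb2 (chr1:186354985-186438294, minus strand), the ligand with broad roles in neural crest, heart and eye development, moved the other way. It was at 3.06, 2.37 and 2.66 CPM in WT NO and 3.32, 6.16 and 3.63 in WT RA, and 2.26, 1.93 and 2.79 in KO NO and 18.1, 11.3 and 19.9 in KO RA. The 3 KO RA libraries lay above all 9 others. The rise was called in KO RA against KO NO (log2 fold change 2.82, SE 0.33, adjusted p = 0.00140) and in KO RA against WT RA (log2 fold change 1.91, SE 0.32, adjusted p = 0.0202), and without library 3 the values were 2.65 (adjusted p = 0.000737) and 1.74 (adjusted p = 0.00868). With TMM factors WT RA and WT NO also did not overlap, but the gene was not called (log2 fold change 0.70, SE 0.31, adjusted p = 0.395). The RA response was larger in KO by 2.12 on the log2 scale (SE 0.44), the smallest p of the family for that difference, but its adjusted p was 0.189 in edgeR, and without library 3 the difference was 1.95 (adjusted p = 0.0536). The rise in KO RA against KO NO was called in all 19 alternatives. That against WT RA was lost on leaving out any 1 of WT RA 1 and 3 or KO RA 1 (adjusted p = 0.0534 to 0.120), with only the libraries compared (adjusted p = 0.155) or with a replicate block.

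Tgfb3 (chr12:86102756-86126301, minus strand) was at 8.42, 5.77 and 1.95 CPM in WT NO and 0.791, 0.681 and 0.782 in KO NO, and at 5.96, 4.03 and 5.73 in WT RA and 3.79, 2.15 and 0.793 in KO RA. All 3 KO NO libraries were below 1 CPM and the WT NO libraries were not, but library 3 of WT NO was the lowest of its group by far. The gene was called lower in KO NO (log2 fold change −2.83, SE 0.59, adjusted p = 0.0491), a call near the threshold that was lost on leaving out any 1 of WT NO 1 and 2, WT RA 1 to 3, KO NO 1 to 3 or KO RA 2 (adjusted p = 0.0624 to 0.219). In KO RA against KO NO all 3 libraries were higher, but the lowest, library 3, was at 0.793 CPM beside a KO NO maximum of 0.791, and the gene was not called (log2 fold change 1.60, SE 0.58, adjusted p = 0.129). Without that library it was (1.96, adjusted p = 0.0254). Exons of Tgfb3 overlap those of Ttll5 on the opposite strand over 179 bp, where the counting may not separate reads.

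As a share of the summed level of the 3 ligands, Tgfb1 was 59.2% ± 10.2 in WT NO and 72.2% ± 2.66 in KO NO (mean ± SD, n = 3). After RA it was 21.4% ± 0.579 in WT and 11.5% ± 2.38 in KO. Tgfb3 was the largest share in 2 of the 3 WT RA libraries (50.2%, 31.3% and 48.0%), and Tgfb2 was the largest in all KO RA libraries (71.2%, 74.3% and 87.4%). The shares within a library do not depend on its scaling. Tgfb2's share in KO RA did not overlap that in WT RA (27.9%, 47.9% and 30.4%) or KO NO (22.1%, 21.2% and 19.3%). The summed level was 22.1, 21.3 and 14.4 CPM in WT NO and 11.9, 12.9 and 11.9 in WT RA, and 10.2, 9.06 and 14.4 in KO NO and 25.4, 15.3 and 22.8 in KO RA.

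**Figure D2:**
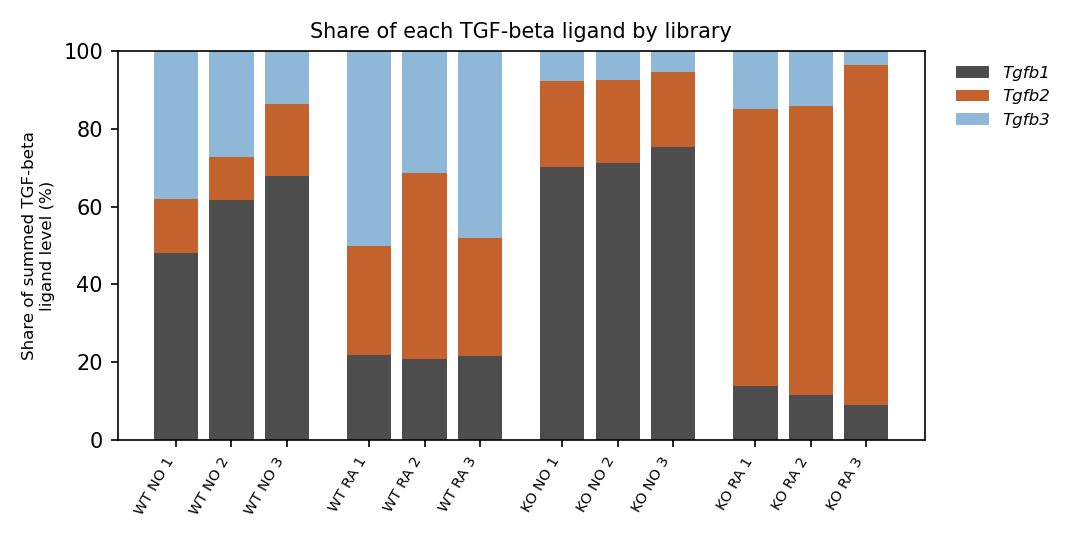
Each bar is 1 library, and its colours give the percent share of Tgfb1, Tgfb2 and Tgfb3 in their summed level (CPM). Tgfb1 is the largest share in all 6 untreated libraries (48.0% to 75.2%), and Tgfb2 is the largest in the 3 KO RA libraries (71.2% to 87.4%).

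Ltbp1 (chr17:75312519-75699507, plus strand), whose protein binds latent TGF-beta and anchors it in the matrix, was at 4.33, 3.92 and 4.52 CPM in WT NO and 11.7, 13.7 and 9.60 in WT RA, and 2.34, 1.69 and 2.18 in KO NO and 11.6, 11.3 and 9.32 in KO RA. The RA libraries lay above the untreated ones in each genotype with no overlap, and the RA groups of the genotypes overlapped. The rise was called in WT (log2 fold change 1.45, SE 0.23, adjusted p = 0.0339) and in KO (log2 fold change 2.38, SE 0.24, adjusted p = 0.000483), and in KO it was called in every one of 19 alternatives, with 2.45 (adjusted p = 0.000118) when library 3 was left out. In the untreated cells all KO libraries were below all WT libraries (log2 fold change −1.04, SE 0.23, adjusted p = 0.0624), and without library 3 of KO RA in the fit this passed (−1.03, adjusted p = 0.0106). The call in WT was lost on leaving out any 1 of WT NO 1 to 3, WT RA 1 to 3, KO NO 1 to 3 or KO RA 2 (adjusted p = 0.0519 to 0.136) or with no filter on low counts (adjusted p = 0.0544). The RA response was larger in KO by 0.92 (SE 0.32, adjusted p = 0.468, edgeR), and by 1.00 (adjusted p = 0.0964) without library 3. Ltbp3 was at 0.892 to 2.67 CPM in all libraries, and its values in WT RA (2.60, 2.67 and 2.44) were above those in WT NO (1.34, 1.37 and 1.31) without a call (log2 fold change 0.94, SE 0.38, adjusted p = 0.338).

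Tgfbi (chr13:56757336-56787375, plus strand), which encodes a secreted matrix protein named for its induction by TGF-beta, was low or absent in the WT cells. Its level was 0.0704, 0 and 0.397 CPM in WT NO and 0.240, 1.60 and 0.287 in WT RA, and 0.908, 0.444 and 0.447 in KO NO and 17.6, 5.04 and 9.61 in KO RA. Each KO RA library was above all 9 others, with library 1 the highest. The rise from KO NO was called (log2 fold change 4.16, SE 0.98, adjusted p = 0.0346, and without library 3 it was 4.22, adjusted p = 0.0168) and the difference from WT RA was not (log2 fold change 3.92, SE 0.98, adjusted p = 0.0782), but without library 3 of KO RA it was (3.98, adjusted p = 0.0318). The call against KO NO was lost on leaving out any 1 of WT RA 3, KO NO 1 to 3 or KO RA 1 (adjusted p = 0.0502 to 0.143).

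**Figure D3:**
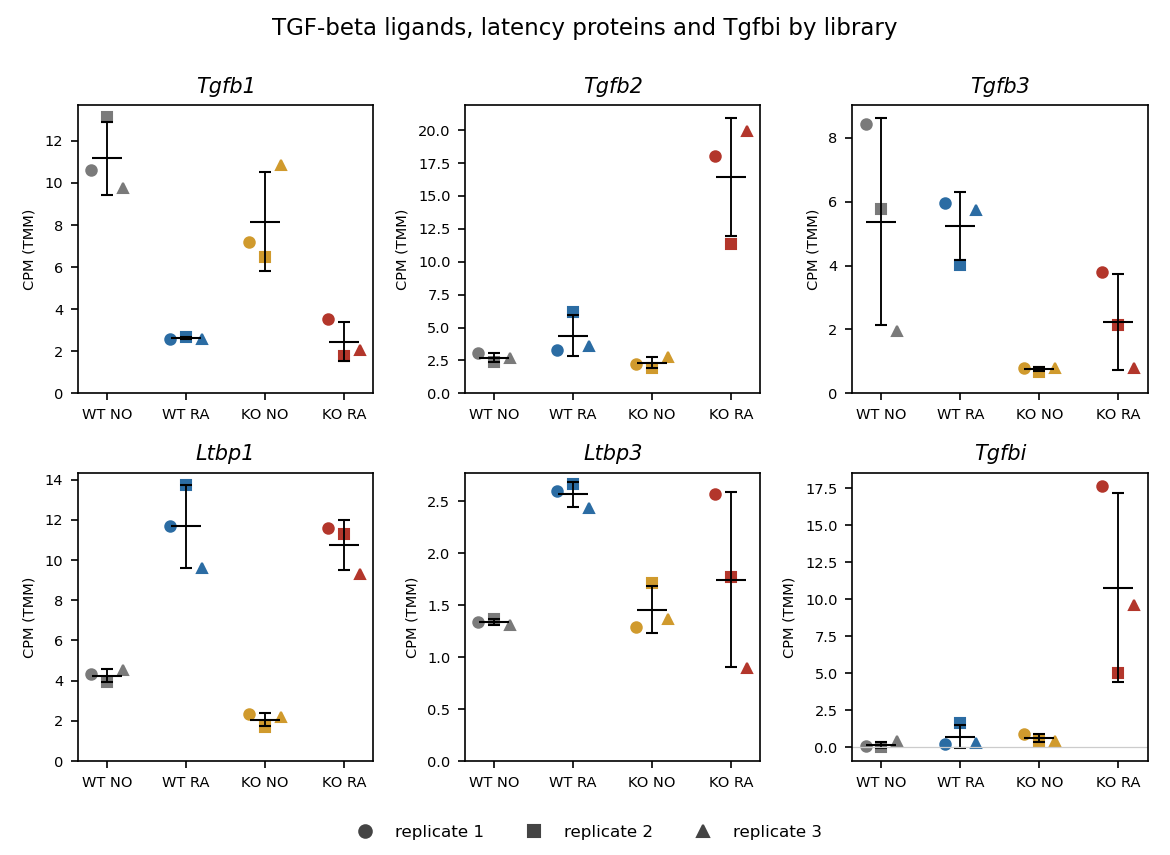
Points give the level (CPM, TMM-scaled) in each library, with the marker shape for the replicate number, and the bar with whiskers the mean ± SD of 3 libraries (whiskers can reach below 0). Tgfb1 is lower after RA in both genotypes, Ltbp1 higher in both, and Tgfb2 and Tgfbi are highest in the 3 KO RA libraries (Tgfb2 11.3 to 19.9 CPM).

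Markers of several other cell types were also higher after RA. The summed level of 7 mesenchymal and smooth muscle markers was 72.1, 43.4 and 98.5 CPM in WT NO and 141.0, 269 and 106.2 in WT RA, and 47.4, 47.5 and 46.2 in KO NO and 364, 202 and 1048 in KO RA. All RA libraries were above the untreated ones of their genotype in this sum, and none of the 7 was at 0 in all 3 libraries of a group. The 7 did not all rise. Twist1 and Pdgfrb overlapped between RA and untreated libraries in both genotypes, and Acta2 and Tagln overlapped in WT. Tagln alone was at 763 CPM in library 3 of KO RA. Prrx1 and Col3a1, a mesenchymal transcription factor and a fibrillar collagen, rose in both genotypes (log2 fold change 4.33 and 5.18 in WT, 6.15 and 6.42 in KO). Sox1 and Fabp7, markers of neural progenitors, were at 17.9, 13.9 and 3.07 and at 40.6, 15.6 and 155 CPM in KO RA and rose from KO NO (Sox1 by 5.70 on the log2 scale). So did the progenitor markers Nes and Cdh2 and the neuron markers Map2 and Tubb3. The progenitor marker Otx2 and the neuron marker Rbfox3 went the other way. All their KO RA libraries lay below KO NO, without a call (log2 fold change −1.14 and −1.77). Without library 3 of KO RA Otx2 was called lower (−0.71, adjusted p = 0.0224). KO RA and KO NO overlapped in Sox2, Pax6, Dcx and Elavl3. In WT RA Sox1 was at 2.21, 2.96 and 4.25 CPM and Fabp7 at 5.05, 2.04 and 7.12, and Fabp7 was called higher in KO RA than there (log2 fold change 3.89, SE 0.76, adjusted p = 0.0376). The 7 progenitor markers summed to 255 to 290 CPM in KO NO and 327 to 375 in KO RA. In WT the sums overlapped, at 254 to 301 in WT NO and 278 to 320 in WT RA. The summed level of 6 neuron markers was 69.5 to 87.2 CPM in KO NO and 141 to 203 in KO RA, with 77.6 to 107 in WT NO and 138 to 158 in WT RA. Stmn2 alone was at 41.6 to 60.2 CPM in KO NO, 62.3 to 164.5 in KO RA and 81.7 to 106.9 in WT RA. Of 4 endothelial markers the sum was 1.07 to 2.01 CPM in KO NO and 4.16 to 12.6 in KO RA. In WT the sums overlapped, at 0.563 to 2.81 in WT NO and 1.29 to 2.23 in WT RA. Cdh5 was at 0 in every untreated library of both genotypes. Kdr and Tek rose from KO NO to KO RA (4.45 and 2.40). Pecam1 overlapped between RA and untreated libraries in both genotypes, and Kdr did so in WT. Without library 3 of KO RA all marker genes named here as having risen in KO were again called in KO RA against KO NO. The values were 6.31 for Prrx1, 6.80 for Col3a1, 6.13 for Sox1, 6.67 for Fabp7, 4.72 for Kdr and 2.57 for Tek. Within WT RA, library 2 had the highest summed level of the mesenchymal markers and also the highest Tgfb2, Tgfbi, Bmp2, Bmp4, Nog, Grem1, Id1 and Id2. Most of that sum was Tagln (119.9 CPM) and Acta2 (70.2 CPM), and Prrx1 was highest in library 3 of WT RA (15.9 CPM). Within KO RA and with TMM factors, library 3 had the highest sum and the highest Tgfb2, Bmp4, Nog, Grem1, Id1 and Id2, while Tgfbi and Bmp2 were highest in library 1. That order rests on the scaling of library 3. Without TMM factors each of these genes was highest in library 1 of KO RA. Tgfb2 was then at 23.0, 13.9 and 7.83 CPM in libraries 1 to 3, and Id2 at 92.5, 67.9 and 88.9. In these bulk samples more cells of a type and more RNA per cell cannot be told apart, and the part of these cell types in the changes of the family was not tested.

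Nodal (chr10:61253587-61261117, plus strand), the ligand that acts with Gdf3 in the epiblast, was among the 4 highest of the 45 genes in both untreated groups. It was at 64.0, 53.9 and 91.1 CPM in WT NO and 47.3, 33.3 and 34.1 in WT RA, and 76.5, 84.7 and 67.6 in KO NO and 23.2, 22.9 and 12.2 in KO RA. The RA libraries were below the untreated ones in each genotype, and KO RA was below WT RA, with no overlap in any of the 3 cases. The fall was called in KO (log2 fold change −1.97, SE 0.30, adjusted p = 0.00575; without library 3 it was −1.74, adjusted p = 0.00150). In WT it was not (log2 fold change −0.87, SE 0.29, adjusted p = 0.247), although it passed without library 3 of KO RA (−0.86, adjusted p = 0.0246), and neither was KO RA against WT RA (log2 fold change −0.97, SE 0.29, adjusted p = 0.137, and without library 3 it was −0.74, adjusted p = 0.0702). The call in KO was lost with only the libraries compared (adjusted p = 0.0548). The difference of the RA response was −1.10 (SE 0.41, adjusted p = 0.497, edgeR), and without library 3 it was −0.87 (adjusted p = 0.160).

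Gdf3 (chr6:122582317-122587197, minus strand), a Nodal-related ligand of pluripotent cells, was by mean level the highest gene of the family in 3 groups, all but KO RA. Its level was 232, 209 and 121 CPM in WT NO and 145, 118 and 156 in WT RA, and 121, 99.3 and 123 in KO NO and 66.2, 81.4 and 76.5 in KO RA. KO RA was below both WT RA and KO NO without overlap, while library 3 of WT NO lay within the KO NO range. No comparison was called with all libraries (KO RA against WT RA, log2 fold change −0.90, SE 0.26, adjusted p = 0.122; KO NO against WT NO, log2 fold change −0.71, SE 0.26, adjusted p = 0.281), and without library 3 of KO RA the first was (−0.93, adjusted p = 0.0411). Its exons overlap those of Dppa3 on the opposite strand over 184 bp, and Dppa3 was at 0.397 to 0.813 CPM in WT NO and 3.15 to 14.9 in KO NO.

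The activin subunit genes were near the low end. Inhbb (chr1:119343193-119350021, minus strand) was at 0.264, 0.296 and 0.223 CPM in KO NO and 1.67, 1.67 and 0.991 in KO RA, with 0.423, 0.370 and 0.122 in WT NO and 0.769, 0.970 and 0.430 in WT RA. RA libraries were above untreated ones in each genotype, and the rise was called in KO (log2 fold change 2.46, SE 0.58, adjusted p = 0.0357; without library 3 it was 2.65, adjusted p = 0.0151), a call lost on leaving out any 1 of WT NO 2, WT RA 1 and 2, KO NO 1 to 3 or KO RA 1 and 2 (adjusted p = 0.0536 to 0.136) or with no filter on low counts (adjusted p = 0.0853) or with only the libraries compared (adjusted p = 0.0616). Inhba showed a like order in KO, with 0.234, 0.474 and 0.363 CPM before and 0.948, 1.06 and 1.49 after RA, and was not called (log2 fold change 1.68, SE 0.50, adjusted p = 0.0764; without library 3 it was 1.47, adjusted p = 0.0838).

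The Nodal antagonists Lefty1 and Lefty2 differed widely between libraries of 1 group. Lefty1 was at 8.45, 5.10 and 129.8 CPM in WT NO, so that library 3 was more than 10 times either of the others, and Lefty2 was at 1.41, 0.296 and 15.0. In the other groups Lefty1 was at 67.9, 34.8 and 40.6 (WT RA), 42.1, 58.2 and 42.0 (KO NO) and 32.2, 45.2 and 14.9 (KO RA). For Lefty2 the values were 1.01, 0.436 and 0.334 (WT RA), 11.04, 6.22 and 3.52 (KO NO) and 3.66, 1.12 and 5.15 (KO RA). With all libraries edgeR called neither gene in any comparison (adjusted p from 0.283 to 1.00), with a log2 fold change of −0.01 for Lefty1 in KO NO against WT NO. That value rests on library 3 of WT NO, without which it was 2.81 (adjusted p = 0.0313) and was called, and without which Lefty1 was 2.82 (adjusted p = 0.0728) in WT RA against WT NO. For Lefty2 in KO NO against WT NO the value without it was 3.02 (adjusted p = 0.171). DESeq2 with all libraries called Lefty2 in WT RA against WT NO, and limma-voom with library weights called Lefty2 in KO NO against WT NO. The latter also called Lefty1 there, in WT RA against WT NO and for the difference of the RA response. Fst, the gene of follistatin, was at 30.7, 31.5 and 20.7 CPM in WT NO and 18.4, 24.3 and 38.7 in WT RA, and 39.2, 66.1 and 46.6 in KO NO and 108.9, 96.6 and 30.3 in KO RA. Untreated KO libraries lay above all WT NO libraries, and KO RA libraries 1 and 2 were the highest of the 12 while library 3 was within the WT RA range. KO RA against WT RA was not called (log2 fold change 1.54, SE 0.45, adjusted p = 0.125) and was without that library (1.91, adjusted p = 0.00592).

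**Figure D4:**
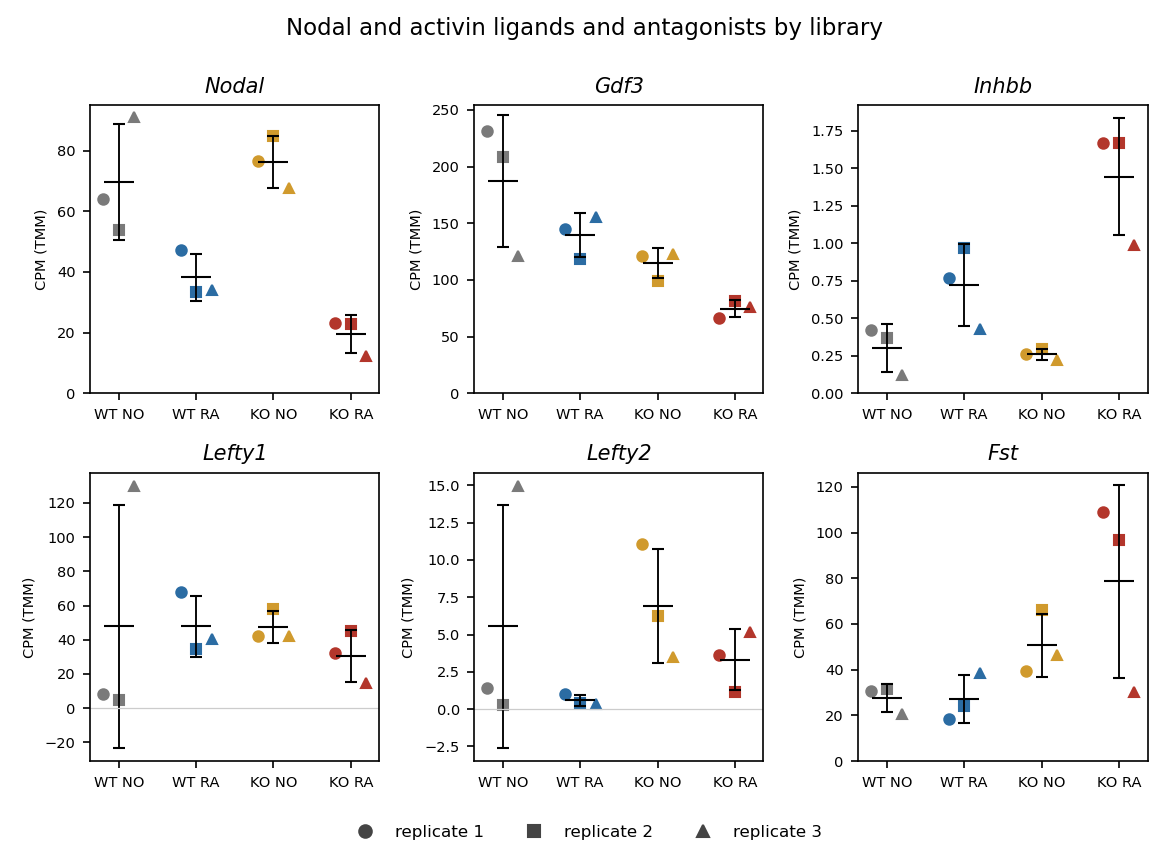
Points give the level (CPM, TMM-scaled) in each library, with the marker shape for the replicate number, and the bar with whiskers the mean ± SD of 3 libraries (whiskers can reach below 0). Nodal is lowest in KO RA (12.2 to 23.2 CPM), and library 3 of WT NO stands far above the others of its group in Lefty1 (129.8 CPM).

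Among the BMP ligands, Bmp7 was the largest share in 11 of the 12 libraries, the exception being library 3 of KO RA. Bmp4 (chr14:46620250-46636745, minus strand), which patterns the dorsal neural tube and mesoderm, was at 4.23, 3.70 and 3.63 CPM in WT NO and 9.13, 12.7 and 7.26 in WT RA, and 4.04, 4.32 and 9.21 in KO NO and 18.7, 15.1 and 30.6 in KO RA. With TMM factors each RA group was above its untreated group and KO RA above WT RA, without overlap. The rise was called in KO (log2 fold change 1.87, SE 0.38, adjusted p = 0.0193; without library 3 it was 1.51, adjusted p = 0.0145), and in WT it was not (log2 fold change 1.33, SE 0.38, adjusted p = 0.172) but passed without library 3 of KO RA (1.33, adjusted p = 0.0271). The call in KO was lost on leaving out any 1 of KO NO 1 and 2 (adjusted p = 0.101 to 0.107) or with only the libraries compared (adjusted p = 0.119). Bmp4 made up 18.6% ± 1.45 of the summed BMP ligand level in WT NO and 26.5% ± 4.99 in WT RA (mean ± SD, n = 3), and 23.3% ± 8.08 in KO NO. In KO RA it was 41.6%, 34.9% and 71.9%, so that library 3 was far above the others and all 3 were above every KO NO library (17.5%, 19.9% and 32.5%).

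Bmp2 (chr2:133394079-133404816, plus strand), the close relative of Bmp4, was at 0.458, 0.148 and 0.366 CPM in WT NO and 0.817, 2.28 and 0.573 in WT RA, and 0.205, 0.237 and 0.251 in KO NO and 3.57, 2.45 and 2.87 in KO RA. With TMM factors all KO RA libraries lay above the 9 others, though library 2 of WT RA came close to the lowest. The rise in KO was called (log2 fold change 3.65, SE 0.62, adjusted p = 0.00857; without library 3 it was 3.66, adjusted p = 0.00508), lost on leaving out any 1 of KO NO 1 to 3 (adjusted p = 0.0503 to 0.0567), and that in WT was not called (log2 fold change 1.90, SE 0.59, adjusted p = 0.208). Bmp7 was at 19.1, 15.4 and 13.0 CPM in WT NO and 25.0, 23.5 and 23.5 in WT RA, and passed there without library 3 of KO RA (0.61, adjusted p = 0.0257; with it log2 fold change 0.60, SE 0.45, adjusted p = 0.663). In KO it was at 17.9, 16.2 and 17.4 untreated and 20.9, 24.2 and 4.36 after RA, where library 3 was the lowest of all. Bmp5 (0.194 to 4.26 CPM) and Bmp6 (0.223 to 0.970 CPM) were low and not called. Bmp1 (chr14:70711689-70758178, minus strand), which encodes a metalloprotease that frees BMPs from chordin and is not itself a BMP, was at 0.644, 0.918 and 1.17 CPM in KO NO and 4.06, 2.25 and 2.08 in KO RA (log2 fold change 1.62, SE 0.42, adjusted p = 0.0470; without library 3 it was 1.77, adjusted p = 0.0166). The call was lost on leaving out any 1 of WT NO 1 and 2, WT RA 1 to 3, KO NO 1 to 3 or KO RA 1 (adjusted p = 0.0578 to 0.180) or with no filter on low counts (adjusted p = 0.111) or with only the libraries compared (adjusted p = 0.156).

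Of the 4 BMP antagonists, Nog and Grem1 rose with RA in the knockout line. Nog (chr11:89191464-89193158, minus strand), the gene of noggin, was at 2.18, 3.88 and 1.74 CPM in WT NO and 3.46, 7.76 and 2.20 in WT RA, and 2.05, 1.54 and 1.56 in KO NO and 13.3, 7.02 and 24.9 in KO RA. Library 2 of WT RA was above the lowest KO RA library, so only the KO groups were separate. The rise was called (log2 fold change 3.12, SE 0.57, adjusted p = 0.0122; without library 3 it was 2.55, adjusted p = 0.00855) and lost on leaving out any 1 of KO NO 1 to 3 (adjusted p = 0.0626 to 0.0753). The difference of the RA response, 2.34 (SE 0.77), was not called (adjusted p = 0.432, edgeR), and without library 3 it was 1.76 (adjusted p = 0.202). Grem1 (chr2:113576509-113589000, minus strand), the gene of gremlin, had 2, 3 and 3 counts in KO NO and 33, 22 and 31 in KO RA, a ratio of 18.1 of the summed counts (95% exact interval 8.79 to 43.3, covering counting error only). Its fitted change was called (log2 fold change 4.42, SE 1.14, adjusted p = 0.0483; without library 3 it was 3.77, adjusted p = 0.0485) and depends on the prior count. It was lost on leaving out any 1 of WT NO 1 and 2, WT RA 1, KO NO 1 to 3 or KO RA 1 (adjusted p = 0.0537 to 0.186) or with no filter on low counts (adjusted p = 0.0551). In WT RA Grem1 was at 0.721, 3.73 and 0.239 CPM, with library 2 above all KO RA libraries.

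Bambi, which encodes a pseudoreceptor that dampens both TGF-beta and BMP signals, was at 4.73 to 6.71 CPM in WT NO and 6.55 to 7.66 in WT RA, and 4.89 to 5.60 in KO NO and at 7.31, 12.4 and 46.7 in KO RA. It missed the threshold in KO RA against KO NO (log2 fold change 2.06, SE 0.54, adjusted p = 0.0510) and passed without library 3 with a smaller change (0.89, adjusted p = 0.0290). Chrd, the gene of chordin, was at 0.0991 to 1.31 CPM and was not called.

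The Id genes, direct BMP targets whose proteins block bHLH factors, did not share 1 pattern. Id2 (chr12:25143798-25147282, minus strand) was at 28.8, 33.2 and 17.03 CPM in WT NO and 38.7, 73.9 and 40.5 in WT RA, and 31.2, 19.5 and 26.0 in KO NO and 72.5, 55.5 and 226 in KO RA. RA libraries were above untreated ones in each genotype, and the rise was called in KO (log2 fold change 2.20, SE 0.52, adjusted p = 0.0349). Library 3 of KO RA, at more than 3 times the others, moved the change, which was 1.31 (adjusted p = 0.0231) without it. The call was lost on leaving out any 1 of WT NO 1 and 2, WT RA 1 and 3 or KO NO 1 to 3 (adjusted p = 0.0526 to 0.144) or with only the libraries compared (adjusted p = 0.153). Id1 went the other way in WT, from 95.3, 83.7 and 74.1 CPM in WT NO to 29.1, 60.7 and 22.6 in WT RA with no overlap and no call (log2 fold change −1.17, SE 0.53, adjusted p = 0.399). In KO it was at 112, 48.9 and 83.4 untreated and 47.7, 29.1 and 126 after RA. Id3 was at 35.9, 24.8 and 44.8 CPM in WT NO and 78.7, 57.5 and 49.2 in KO NO, above in all libraries, and was not called (log2 fold change 0.81, SE 0.34, adjusted p = 0.360). It passed without library 3 of KO RA (0.82, adjusted p = 0.0491) and with limma-voom library weights. Id4 was at 0.855 to 3.04 CPM and not called. As a share of the summed Id level, Id1 was 57.2% ± 2.66 and Id2 17.8% ± 5.40 in WT NO, and after RA Id2 was above Id1 in every library, at 38.7% ± 4.73 in WT RA against 27.5% ± 6.43 for Id1, and at 44.4%, 42.8% and 51.1% against 29.2%, 22.4% and 28.4% in the 3 KO RA libraries.

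**Figure D5:**
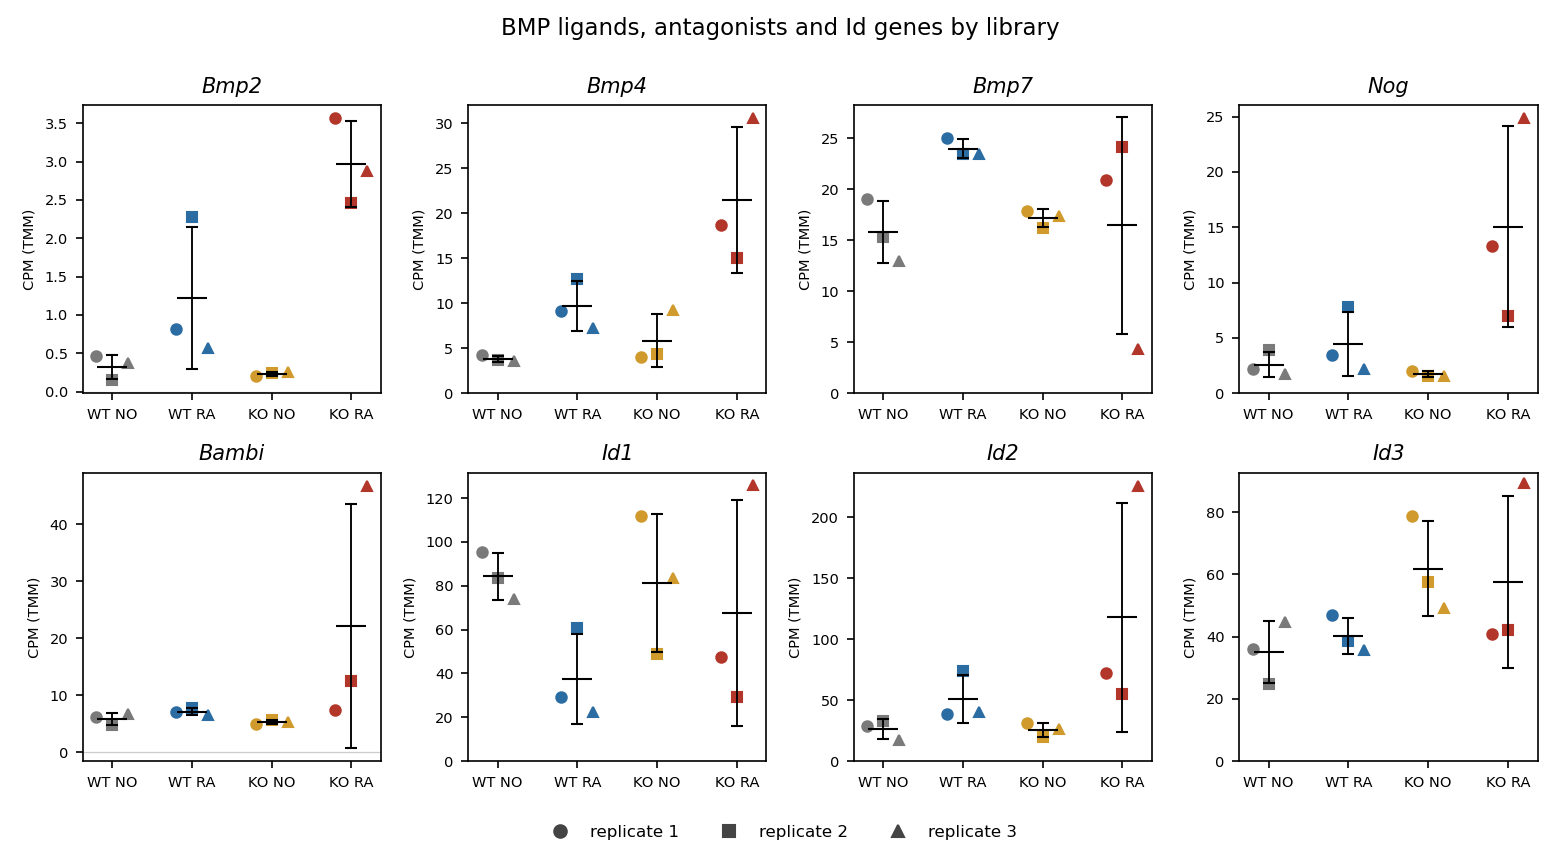
Points give the level (CPM, TMM-scaled) in each library, with the marker shape for the replicate number, and the bar with whiskers the mean ± SD of 3 libraries. Bmp2 and Bmp4 are highest in KO RA, and library 3 of KO RA stands above the others of its group in Bambi (46.7 CPM), Id1, Id2 (226 CPM) and Id3 and below them in Bmp7 (4.36 CPM).

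The high values of library 3 of KO RA depend on its scaling. Without TMM factors Id2 was at 88.9 CPM there beside 92.5 and 67.9 in libraries 1 and 2, Id3 at 35.2 beside 52.1 and 51.7, and Bmp4 at 12.04 beside 23.8 and 18.4, while Bambi remained the highest at 18.4 beside 9.33 and 15.2. Separations of groups depend on it too. Without TMM factors Bmp2 was at 1.13 CPM in library 3 against 2.31 in library 2 of WT RA, and Bmp4 at 12.04 against 12.9, so that KO RA overlapped WT RA in both, as it then did in Tgfb3, Inhbb, Bmpr1b and Acvr1. Also without these factors, Tgfb3, Bmp1, Bmp6, Bmpr1a and Bmpr1b overlapped in KO RA against KO NO. The same held for Tgfb2, Inhbb, Bmpr1a, Smad6 and Id2 in WT RA against WT NO, and for Bmp1 and Acvr2b in KO NO against WT NO. The counts above and below were then 11 and 7 for KO RA against KO NO, 6 and 2 for KO RA against WT RA, 6 and 11 for WT RA against WT NO and 11 and 3 for KO NO against WT NO. No share of all genes is given at this scaling. These counts therefore show only how the separations moved, and not whether the family differs from other genes.

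The receptors are 9 kinases of the cell surface and the coreceptor Tgfbr3. Of these 10 genes edgeR called none in any comparison, with log2 fold changes from −0.57 to 0.91 in the 4 pairwise comparisons. At an unadjusted p under 0.05, Acvr1 and Bmpr1b were higher in KO RA against WT RA, Bmpr1b was higher in KO RA against KO NO, Acvr1 was lower in WT RA against WT NO, and the RA response of Acvr1 was larger in KO. DESeq2 called Bmpr1b and Acvr1 higher in KO RA against WT RA and Bmpr1b higher in KO RA against KO NO, and limma-voom with library weights called 3 to 6 of the 10 in each pairwise comparison. Bmpr1a, a BMP type I receptor, was at 22.5 to 28.8 CPM in WT NO and 32.3 to 36.7 in WT RA, and 30.2 to 32.3 in KO NO and 32.8 to 60.9 in KO RA. Acvr2b and Tgfbr1, which serve activin and Nodal and TGF-beta, were at 6.84 to 35.8 and 19.3 to 30.9 CPM over the 12 libraries, and the lowest Acvr2b was in library 3 of KO RA. Acvr1b (2.08 to 12.2 CPM), Acvr2a (4.26 to 8.13), Acvr1 (2.91 to 7.22), Tgfbr3 (2.28 to 13.4), Bmpr2 (3.67 to 6.83), Bmpr1b (1.83 to 5.01) and Tgfbr2 (0.991 to 4.67) were lower. Acvr1 was at 3.32, 3.88 and 2.91 CPM in WT RA and 5.96, 7.22 and 4.16 in KO RA, and Bmpr1b at 1.83, 2.81 and 2.10 and 5.01, 4.40 and 3.27, both without overlap. Without library 3 of KO RA, Acvr1 (0.96, adjusted p = 0.0196), Bmpr1b (1.06, adjusted p = 0.0436), Acvr1b (0.66, adjusted p = 0.0247) and Acvr2b (0.61, adjusted p = 0.0319) passed in KO RA against WT RA.

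Smad4, the common partner, was at 41.2 to 107 CPM and Smad2 at 38.3 to 52.7 over the 12 libraries, with the lowest Smad4 in library 3 of KO RA. Of the 8 Smads edgeR called none with all libraries, with 1 or 2 in each comparison at an unadjusted p under 0.05. DESeq2 called Smad6 higher in KO NO against WT NO, and limma-voom with library weights called 1 to 3 in each comparison. Smad3 was at 22.1, 28.6 and 19.7 CPM in WT NO and 49.6, 30.5 and 43.2 in WT RA, and 28.7, 28.4 and 28.8 in KO NO and 59.4, 84.3 and 14.3 in KO RA, where library 3 was the lowest of the 12 and libraries 1 and 2 the highest. Without that library Smad3 passed in KO RA against KO NO (1.32, adjusted p = 0.00383), WT RA against WT NO (0.81, adjusted p = 0.0305) and KO RA against WT RA (0.80, adjusted p = 0.0450). Smad1 (11.5 to 34.4 CPM) and Smad5 (14.3 to 34.1 CPM) are BMP Smads. For each of them the KO RA libraries overlapped those of WT RA and of KO NO. Without library 3 Smad1 passed in KO RA against WT RA (1.16, adjusted p = 0.00659) and Smad5 in KO RA against KO NO (0.95, adjusted p = 0.0163). Smad9 was near the floor of 3 counts after RA. It had 6, 4 and 27 counts in WT NO and 1, 3 and 2 in WT RA (ratio 4.36 of the summed counts, 95% exact interval 1.82 to 12.6), and 26, 8 and 19 in KO NO against 1, 4 and 0 in KO RA (ratio 6.30, 2.53 to 20.2). The groups did not overlap in either genotype, and neither difference was called.

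The inhibitory Smads, which close the feedback on the receptors, were both higher in every KO NO library than in any WT NO library. Smad6 was at 3.38, 3.07 and 3.39 CPM in WT NO and 5.80, 5.66 and 5.95 in KO NO (log2 fold change 0.82, SE 0.25, adjusted p = 0.182), passing without library 3 of KO RA (0.83, adjusted p = 0.0405). Smad7 was at 17.3, 16.0 and 15.0 CPM in WT NO and 26.1, 22.0 and 20.02 in KO NO (log2 fold change 0.50, SE 0.35, adjusted p = 0.677), and at 17.6, 16.8 and 5.45 in KO RA. Smad6 was higher in WT RA than in WT NO (5.77, 6.16 and 3.54 CPM, no overlap), and the WT RA and KO RA groups overlapped.

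For the difference between KO and WT in their RA response, edgeR called none of the 45 genes and none of all genes tested (0% higher, 0% lower). The response of 5 of the 45 was higher in KO, and that of 2 was lower, when the unadjusted p under 0.05 was used. DESeq2 called 2 genes, Acvr1 and Tgfb2, both higher (1.87% of all genes in either direction), and limma-voom with library weights called 10, of which 8 were higher (5.97%). Without library 3 of KO RA edgeR again called none of the 45 (1.34% of all genes), and at an unadjusted p under 0.05 it gave 10 higher and 3 lower. The shares of all genes given here are for the adjusted p. None is given for the unadjusted p, so the counts at that threshold show no tendency of the family. In edgeR with all libraries, the 3 genes with the smallest p were Tgfb2, Nog and Ltbp1, whose values are given above.

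Of 74 further genes of these pathways, listed apart from the 45, all were in the table and 57 were tested. In KO NO against WT NO 4 rose (0.788% of all genes) and none fell (0.351%), while at an unadjusted p under 0.05 edgeR gave 3 lower. DESeq2 called 5 higher and 2 lower there and limma-voom with library weights 8 and 8 (6.15% and 21.6% of all genes in either direction). Ccn2, a matricellular target of TGF-beta and YAP signalling, was at 2.22, 1.89 and 0.549 CPM in WT NO and 1.87, 1.26 and 2.20 in WT RA, and 31.6, 18.1 and 26.7 in KO NO and 23.4, 18.7 and 39.2 in KO RA. All 6 KO libraries were above all 6 WT libraries, and it was called in KO NO against WT NO (log2 fold change 4.04, SE 0.51, adjusted p = 0.00484) and in KO RA against WT RA (log2 fold change 3.92, SE 0.51, adjusted p = 0.00750), where it was the only one of the 57 called (0.885% of all genes rose and 0.358% fell; without library 3 of KO RA 3.55, adjusted p = 0.00209). Fstl3, which encodes a follistatin-like activin inhibitor, Hjv, a BMP coreceptor gene, and Gdf1, a Nodal partner gene, were at or under the floor of 3 counts in each WT NO library. In KO NO they were called higher, with Fstl3 at 1.73, 1.16 and 1.28 CPM. Hjv was at 1.14, 0.741 and 0.754 CPM there and Gdf1 at 8.93, 5.01 and 3.71. Gdf1 was at 0 in all 9 other libraries, and all 2836 bp of its exons lie within those of Cers1 on the same strand, so how its reads were assigned is uncertain.

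Of the 57, 6 rose and 5 fell in KO RA against KO NO, beside 3.89% and 1.59% of all genes. Thbs1, whose protein can activate latent TGF-beta, went from 5.27, 3.14 and 6.14 to 24.7, 16.5 and 56.2 CPM (log2 fold change 2.74, SE 0.54, adjusted p = 0.0171; without library 3 of KO RA 2.07, adjusted p = 0.0122). The BMP coreceptor genes Rgma and Rgmb, the BMP binding protein gene Chrdl1, the ligand gene Gdf11 and the target Atoh8 also rose, with log2 fold changes of 2.50, 1.83, 1.78, 2.42 and 3.04. Foxh1, which encodes the DNA-binding partner of SMAD2 in Nodal signalling, fell from 126, 104 and 138 to 44.1, 52.9 and 32.0 CPM (log2 fold change −1.51, SE 0.26, adjusted p = 0.00831; without library 3 it was −1.35, adjusted p = 0.00220). T, a mesoderm gene downstream of Nodal, fell in both genotypes (log2 fold change −2.17 in WT, where it was the only one of the 57 called, and −2.25 in KO), and Msx1, a BMP target, and Zfyve9, a SMAD anchor, fell in KO by 2.65 and 0.90 on the log2 scale. Gdf1, at 0 in KO RA, was the fifth gene that fell. All 11 genes were called in the same direction without library 3, with T at −2.14 and Msx1 at −2.73. Without library 3 of KO RA, 8 of 60 tested rose and 6 fell in KO RA against KO NO (16% of all genes in either direction), and 6 rose and 3 fell in KO NO against WT NO (8.78%). The coreceptor gene Tdgf1, which Nodal needs, was at 442 to 622 CPM in KO NO and 292 to 1139.9 in KO RA, and 486 to 550.0 in WT NO.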

How the data were processed

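RNA was sequenced as paired-end mRNA libraries from 12 samples of NE-4C cells, 3 in each of 4 groups set by the labels. The authors mapped the reads to GRCm39 with nf-core/rnaseq (STAR and Salmon), and the deposited estimated counts per gene form 1 table; low values fell with gene length (Spearman rho −0.685 across 3851 genes above 0 in a single library), so they were taken as scaled for length. How strand was set in counting is not given in the sources used here, and 31 of the 45 genes share exonic bases with another gene. Counts were rounded and fitted with edgeR 4.0.16 in R 4.3.3 (TMM, filterByExpr, robust quasi-likelihood test, 1 coefficient per group, Benjamini-Hochberg over 16502 genes). The steps were tested on simulated data with a smaller dispersion than that of these data (common dispersion 0.215) and no library like library 3 of KO RA. That test does not show the power or error at the spread found here. Alternatives were DESeq2 1.42.0, limma 3.58.1 with voom weights, other filters and scalings, a replicate block and leaving out each library. Members and lists were chosen with earlier results of these data known. Every member is named with its level or range, and full statistics are given for members called and for the 3 uncalled ones with the smallest p in each comparison. P-values measure the spread between passages of 1 line per genotype. Intervals and floors of 3 counts cover counting error only. Ratios of counts have exact 95% intervals. Promoters were read with pysam 0.24.0.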

Additional observations from a re-analysis of the deposited data

How the results depend on the processing

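No called change turned direction under any alternative. Lefty1 in KO NO against WT NO, not called with all libraries, turned without WT NO 3, as given with that gene. The count of the 45 genes called in KO NO against WT NO (1 with the reported settings) was 3 with DESeq2, 2 with DESeq2 size factors in edgeR, 11 with limma-voom library weights, 0 with at least 10 counts in every library, and 0 to 4 on leaving out 1 library. Tgfb3, the gene called with the reported settings, did not pass the filter of 10 counts and was not tested there. In KO RA against WT RA (1) it was 10 with DESeq2, 14 with voom weights, 0 with only the libraries compared and 0 to 10 on leaving out 1 library. In WT RA against WT NO (2) it was 6 with DESeq2, 13 with voom weights, 1 with no filter and 0 to 7 on leaving out 1 library. In KO RA against KO NO (12) it was 16 with DESeq2, 28 with voom weights, 6 with only the libraries compared and 4 to 18 on leaving out 1 library. For the difference of the RA response (0) it was 2 with DESeq2 and 10 with voom weights. The cause of these changes was not tested.

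A replicate block gave 0 calls in both comparisons of KO with WT and in WT RA against WT NO, 8 in KO RA against KO NO and 0 for the difference of the response. The calls of Tgfb1 and Ltbp1 in WT, of Tgfb3 in KO NO and of Tgfb2 against WT RA were thus also lost with it. So were those of Tgfbi, Bmp1, Grem1 and Id2 in KO RA against KO NO. Same-numbered libraries correlated at −0.263 to 0.107 in their deviations from the group means, over 0.1 in 2 of 18 pairs. The deviations of 3 libraries from their mean sum to 0, so these values cannot show whether the numbers pair the samples. Division by exonic length was not run because the values are already per length. At this depth Grem1 in KO NO and Smad9 after RA rest on 0 to 4 counts per library.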
